A study of Mus musculus with 12 samples.

Results

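The interferon-stimulated gene families are sets of antiviral and antimicrobial effectors, sensors and transcription factors that cells switch on when interferon binds its receptors. Members were taken by gene symbol from the deposited expression table: the Ifit, Ifitm, numbered Ifi, Oas, Gbp, Irf, Irgm and Mx families, and single genes that include Stat2, Isg15, Isg20, Rsad2, Usp18, Zbp1, Ifih1, Ddx58, Dhx58, Igtp, Iigp1 and Bst2. The rule found 81 of the 27179 genes in the table. They were divided by gene name into 38 type I genes, 18 type II genes and 25 shared genes. Type I holds the Ifit, Oas, Mx and Ifi27 families with Isg15, Rsad2, Bst2, the RNA sensors and Stat2, Irf7 and Irf9. Type II holds the guanylate-binding proteins (Gbp), the immunity-related GTPases (Irgm1, Irgm2, Igtp, Iigp1 and Ifi47), Ifi30 and Irf1. The shared group includes the Ifitm family, the remaining Irf genes and the p200 family of DNA-binding proteins (such as Ifi204).

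RNA was sequenced from full-thickness mouse colon cut out at the site where diphtheria toxin and India ink had been injected into the muscle wall at laparotomy. The 7 ablated libraries came from BAF53b-Cre::R26-iDTR mice, in which a promoter active in neurons drives Cre, and Cre in turn allows a toxin receptor placed in the Rosa26 locus (iDTR) to be made. The 5 control libraries came from Cre-negative R26-iDTR littermates, which had the same surgery, toxin and ink, so toxin and injury are common to both groups. The labels give neither age, sex nor time after injection, nor whether each library is a separate mouse; p-values here cover only the spread between libraries.

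Type I interferons (alpha and beta) act through IFNAR1 and IFNAR2, and lambda interferons, whose receptor is found mainly on epithelium, feed into the same pathway. Both assemble a complex with STAT2 and IRF9 that binds the interferon-stimulated response element (ISRE). Interferon gamma, the type II interferon of T and NK cells, acts through IFNGR1 and IFNGR2 to the gamma-activated site (GAS), and it is the strongest inducer of the Gbp genes and the immunity-related GTPases. Many members respond to both types.

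Across the 12 libraries no member passed the test between ablated and control colon, where 0.421% of all genes passed as higher and 1.01% as lower. The library ablated 3 stood apart from the other 11: 14 of the 16 type II genes tested were highest there, with a median of 3.70 times the gene's median over all libraries. In ablated 3 that median was 2.14 times for shared genes, 1.68 times for type I genes and 1.10 times for all genes. Of the type I genes 21 of 34 were highest there, and of the shared genes 14 of 20, beside 14.4% of all genes tested. With ablated 3 left out, 15 of the 16 type II genes had a log2 fold change below 0 (median -0.51). So did 23 of 34 type I genes and 16 of 20 shared genes, beside 7953 of 16164 genes tested. Of the type II genes 1 then passed as lower, where 1.13% of all genes did. Ablated 3 was singled out on these same values, and leaving out the highest library moves its group down. These values therefore describe only the other 11 libraries. Irf1, which encodes the transcription factor that activates many interferon gamma targets, was the member with the lowest p, at 99.0 ± 10.5 TPM in control (SD, n = 5) and 62.4 ± 21.9 in ablated (n = 7).

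The promoters of 6 members are shown because their interferon elements differ in kind: a lone GAS for Irf1, paired GAS and ISRE for the type II GTPases Igtp, Irgm2 and Gbp7 and for Bst2, and ISRE alone for Isg15. Each is the stretch of 140 bases just before the RefSeq start on GRCm38.p6, written 5′ to 3′ on the gene's strand, with matches on either strand in capitals: GAAA, any 2 bases and GAAA again for the ISRE, and TTCNNNGAA for the GAS. Adjacent or overlapping matches form 1 run of capitals. The windows lie at chr11:53769874-53770013 (plus strand, Irf1), chr11:58199416-58199555 (plus, Igtp), chr11:58214837-58214976 (plus, Irgm2), chr3:142530196-142530335 (plus, Gbp7), chr8:71537473-71537612 (minus, Bst2) and chr4:156200819-156200958 (minus, Isg15). The Irgm2 window lies inside the longer GENCODE model of that gene, which starts at 58199618.
Irf1: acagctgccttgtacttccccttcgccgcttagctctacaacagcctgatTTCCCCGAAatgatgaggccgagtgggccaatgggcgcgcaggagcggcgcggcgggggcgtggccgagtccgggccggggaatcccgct
Igtp: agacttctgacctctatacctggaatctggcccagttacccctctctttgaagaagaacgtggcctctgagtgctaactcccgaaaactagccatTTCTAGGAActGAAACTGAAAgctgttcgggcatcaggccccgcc
Irgm2: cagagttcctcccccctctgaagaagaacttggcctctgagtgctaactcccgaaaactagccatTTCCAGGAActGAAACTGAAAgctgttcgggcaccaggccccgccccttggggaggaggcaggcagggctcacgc
Gbp7: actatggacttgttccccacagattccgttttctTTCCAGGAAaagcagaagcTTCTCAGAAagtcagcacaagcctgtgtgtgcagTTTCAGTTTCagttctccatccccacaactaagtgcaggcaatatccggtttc
Bst2: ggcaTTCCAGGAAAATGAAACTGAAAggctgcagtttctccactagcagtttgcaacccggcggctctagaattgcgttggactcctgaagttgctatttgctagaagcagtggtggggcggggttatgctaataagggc
Isg15: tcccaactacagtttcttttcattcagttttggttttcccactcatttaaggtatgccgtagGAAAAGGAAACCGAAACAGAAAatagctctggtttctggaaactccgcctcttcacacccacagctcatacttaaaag

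Of the 81 members, 58 had a RefSeq promoter entry, and the 250 bases before each start were searched. ISRE letters were found in 13 of 26 type I promoters (50%), 8 of 11 type II promoters (72.7%) and 9 of 21 shared promoters (42.9%), against 3.46% of the promoters of 27025 genes. GAS letters were found in 4 of 26 type I (15.4%), 5 of 11 type II (45.5%) and 4 of 21 shared promoters (19.0%), against 8.13% of all. A match is a description of the letters and not a binding site. Irf1 had a GAS match 90 bases before its start and no ISRE match, while Isg15 had 3 overlapping ISRE matches that begin 78, 72 and 66 bases before its start and no GAS match. ISRE matches without a GAS match also occurred in type II, for Gbp2, Gbp2b, Gbp3 and Irgm1, whose promoters are not printed.

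Members sit in clusters of related genes. The Ifit genes were on chromosome 19, the Oas and Oasl genes on chromosome 5, the Gbp genes on chromosomes 3 and 5, the p200 genes on chromosome 1, and Irgm1, Irgm2, Igtp, Ifi47 and Irf1 on chromosome 11. Some of these genes overlap a neighbour in the annotation, so reads may have been split or dropped: Igtp with Irgm2, Gbp4 with Gbp8 and Gbp9, Gbp6 and Gbp10 with a joined model, Ifi203 with Mndal, and Ifi47 with Olfr56 lie on the same strand. Irf1, Irf3, Irf5 and Irf7 each overlap a gene on the opposite strand, and whether counting used the strand is not given in the sources used here. Near-identical pairs such as Ifit3 and Ifit3b or Oas1a and Oas1g carry the same uncertainty.

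Values are TPM, which scale reads to gene length and library size, so that levels of different genes can be compared. The whole reads behind them came to 13.4 to 26.9 M a library. Mitochondrial genes took 18.7% of the reads of ablated 1, the shallowest library, and 3.56 to 10.4% of those of the others. Epithelial and smooth muscle markers were abundant in all libraries, with summed levels of at least 12372 and 6660 TPM. Of 10 enteric neuron markers, 9 passed as lower in ablated, beside 1.01% of all genes. A gene was tested if it reached 0.5 TPM in at least 5 libraries, which 16164 genes did, and log2 fold changes are ablated minus control after adding 0.5 TPM to every value, so the change of low genes is understated. A gene passes at an adjusted p under 0.05 in limma over all genes tested.

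Of the 81 members, 70 were tested, 34 of type I, 16 of type II and 20 shared. The other 11 were below the minimum: Ifi44l, Oas1d, Oas1e, Oas1f, Gbp10, Gbp11, Ifi208, Ifi213, Ifi214, Ifitm7 and Ifitm10. At an unadjusted p under 0.05 there were 4 members, all lower in ablated (Irf1, Ifit1bl2, Isg20 and Gbp2b), beside 4.75% of all genes lower and 7.07% higher. A count-based fit (voom in limma) on the recovered reads gave 0 passing members, beside 0.353% of all genes higher and 1.31% lower. In that fit 6 members were lower at an unadjusted p under 0.05 (Irf1, Ifit1bl2, Isg20, Gbp2b, Gbp7 and Irf4), beside 6.46% of all genes, and 0 were higher, beside 5.95%. The authors' deposited table likewise holds 0 members under a false discovery rate of 0.05, among 306 genes that are, and its lowest value for a member is 0.112, for Irf1. The groups did not overlap for 0 members, beside 1.33% of all genes higher in ablated and 1.55% lower.

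**Figure D1:**
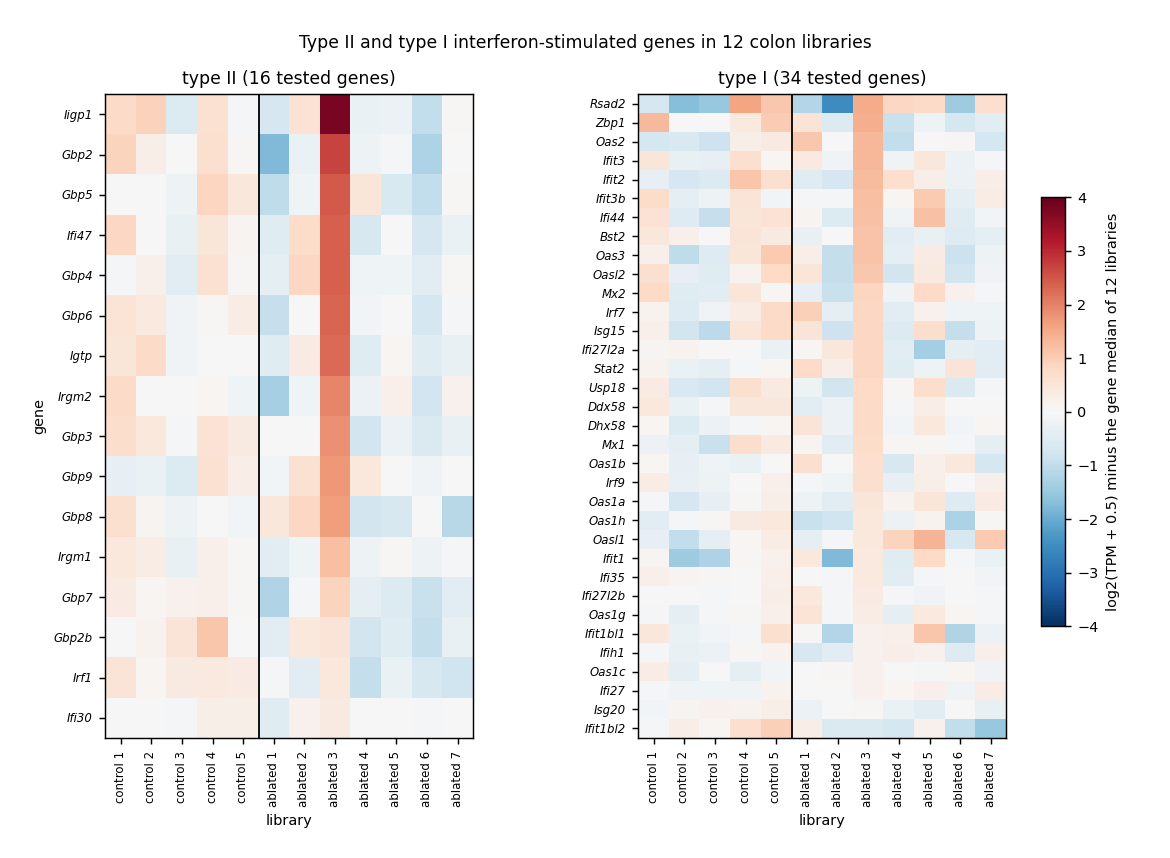
Each row is a tested type II or type I gene and each column a library; colour gives log2(TPM + 0.5) minus that gene's median over the 12 libraries, and the black line parts 5 control from 7 ablated libraries. The column of ablated 3 is the reddest for most type II genes, up to Iigp1, while type I genes vary from library to library on both sides of the line.

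Among the interferons themselves, 21 ligand genes were in the table and none reached the minimum. Ifng, which encodes interferon gamma, rested on 53 reads in all, of which 29 were in ablated 3 (1.92 TPM). Its level in the other libraries was 0 to 0.309 TPM in control and 0 to 0.321 TPM in ablated. Ifnb1, which encodes interferon beta, had 3 reads in all, and 13 ligand genes, most of them alpha interferons, were listed at 0 in every library. Interferon transcripts were therefore at the edge of detection at this depth, and group differences in them were not detectable.

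Receptors were well detected, and 0 of the 6 tested passed, beside 0.421% of all genes higher and 1.01% lower. Ifngr1 and Ifngr2, the interferon gamma receptor chains, were the most abundant, at 239 ± 23.9 and 110 ± 15.5 TPM in control and 274 ± 64.8 and 121 ± 33.1 in ablated. Ifnlr1, the specific chain of the lambda receptor, was at 10.2 ± 1.65 TPM in control and 14.9 ± 2.52 in ablated, a log2 fold change of 0.53 (adjusted p = 0.120). Every ablated library (11.5 to 18 TPM) lay above the highest control (11.4), as for 1.33% of all genes, yet the difference did not pass. Il10rb, its partner chain, was at 92.0 ± 8.22 and 98.9 ± 9.95, Ifnar1 at 13.7 ± 1.19 and 15.4 ± 2.05, and Ifnar2 at 9.13 ± 0.998 and 9.26 ± 3.0. Of 21 tested genes for kinases, sensors, adaptors and inhibitors of the pathway, 0 passed, with 14 log2 fold changes above 0 and 7 below. Those of lowest p were Trim25, the ubiquitin ligase that acts on RIG-I, at 31.4 ± 3.97 and 41.6 ± 12.7 TPM (adjusted p = 0.536), and Tbk1, the kinase that activates IRF3, at 34.7 ± 1.47 and 38.2 ± 2.61 TPM (adjusted p = 0.573).

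Type II genes had a median log2 fold change of -0.13 over the 16 tested, with 14 below 0 and 2 above, beside 0.03 for all genes. Type I genes had a median of 0.04, with 20 above 0 and 14 below, and shared genes were even, at 10 and 10 (median -0.00). Without ablated 3 the type II median was -0.51 and 15 of 16 lay below 0. The type I median was then -0.08, with 23 of 34 below 0, and the shared median -0.19, with 16 of 20 below 0. For all genes the median was 0.00, with 7953 of 16164 below 0. Ablated 3 was singled out on these same values, and taking the highest library from 1 group moves that group down, so the values without it describe the other 11 libraries. Fewer cells of a type and less RNA per cell cannot be told apart in such bulk tissue.

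**Figure D2:**
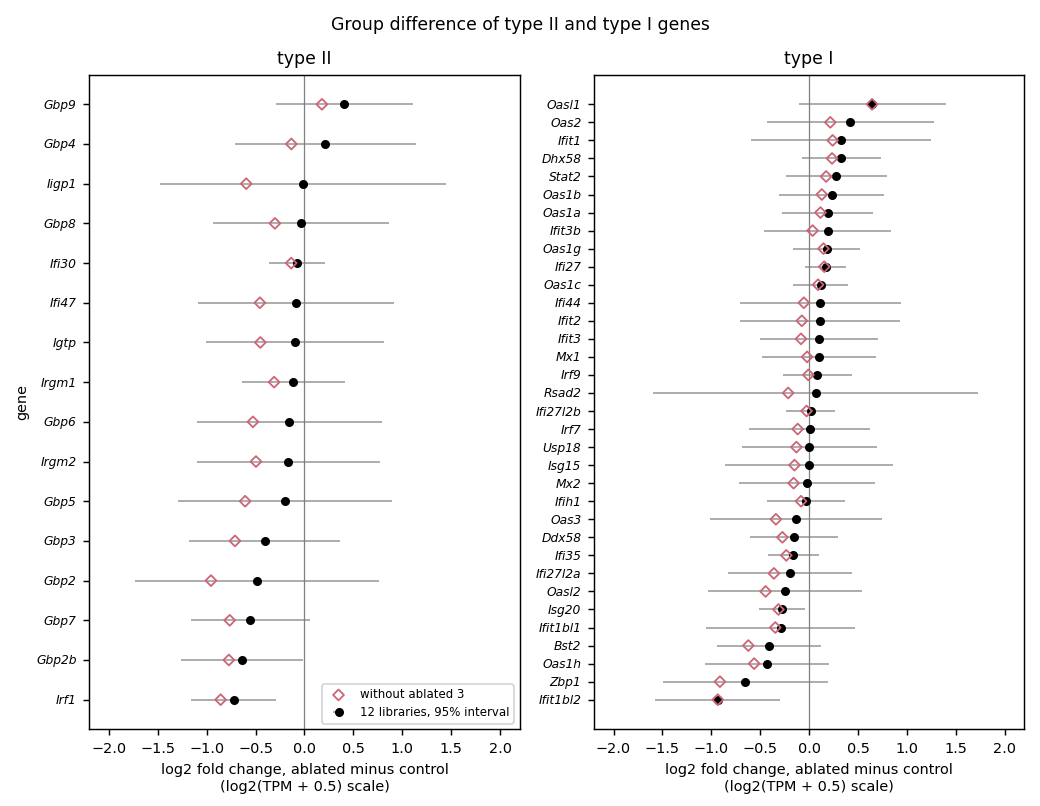
Black points are log2 fold changes (ablated minus control, log2(TPM + 0.5) scale) of type II and type I genes with 95% intervals from limma over 12 libraries, and open diamonds are the same without ablated 3. Diamonds of type II genes shift left, to a median of -0.51 from -0.13, and those of type I genes shift less, to -0.08 from 0.04.

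Irf1 (gene ID 16362, chromosome 11, 53770014 to 53778374 in mm10) stood at 111, 82.7, 99.8, 103 and 97.9 TPM in control 1 to 5. In ablated 1 to 7 it stood at 74.0, 57.2, 104, 40.5, 65.2, 50.3 and 45 TPM. All ablated libraries but ablated 3 lay below every control, and ablated 3 lay inside the control range. The log2 fold change was -0.72 (95% interval -1.16 to -0.29, adjusted p = 0.120), and -0.86 without ablated 3 (adjusted p = 0.0162). Its adjusted p ranged from 0.0152 to 0.396 over the alternative settings. Irf1 thus combined a low level in most ablated libraries with an ordinary control level in ablated 3.

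Gbp7, a guanylate-binding GTPase, was at 10.9, 9.21, 9.83, 10.0 and 8.96 TPM in the controls and at 3.44, 8.25, 16.3, 6.41, 5.73, 4.38 and 6.18 in the ablated libraries. Again 6 of 7 ablated libraries lay below every control, but here ablated 3 was the highest of all 12. Its log2 fold change was -0.55 (adjusted p = 0.480), and -0.76 without ablated 3 (adjusted p = 0.0731). Gbp2b, a close relative of Gbp2 that rests on only 453 reads, was at 1.5 ± 0.726 TPM in control and 0.814 ± 0.539 in ablated (log2 fold change -0.64, adjusted p = 0.408). The 2 type II genes with log2 fold changes above 0 were Gbp9, at 2.30 ± 0.957 and 3.48 ± 2.42 TPM (0.41, adjusted p = 0.713), and Gbp4, at 3.27 ± 1.01 and 5.07 ± 5.59 TPM (0.21, adjusted p = 0.932).

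The members that separate ablated 3 were chosen after their values were seen. Iigp1, an effector GTPase that attacks the vacuoles of intracellular parasites, was at 7.93, 8.92, 2.85, 6.95 and 4.22 TPM in control and at 2.60, 6.87, 68.1, 3.57, 3.64, 1.98 and 4.63 in ablated. The value in ablated 3 was 16.1 times the median of the other 11 libraries and 7.63 times the next highest. The group means, 6.17 ± 2.55 and 13.1 ± 24.3 TPM, differ through that library, since the other 6 ablated libraries averaged 3.88 ± 1.73. Its log2 fold change was -0.02 with it and -0.60 without it.

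Gbp2 behaved alike, at 38.5, 24.6, 20.6, 32.3 and 21.2 TPM in control and 5.67, 17.0, 137, 17.8, 19.4, 8.52 and 20.7 in ablated. Outside ablated 3, 5 ablated libraries lay below every control and the sixth, ablated 7, lay inside the control range. Ablated 3 exceeded the median of the other 11 libraries 6.65-fold for Gbp2, 6.23-fold for Gbp5 and Gbp6, 6.05-fold for Gbp4, 5.71-fold for Ifi47, 5.0-fold for Igtp and 4.09-fold for Irgm2. For Irgm1, a regulator of the other immunity-related GTPases, the excess was 2.40-fold. Ifi30, the thiol reductase of antigen-processing lysosomes and the most abundant type II gene, barely took part: it was at 212 ± 21.7 TPM in control and 203 ± 34.6 in ablated, with 257 TPM in ablated 3, 1.28 times the median of the others. Of the type II genes below the minimum, Gbp11 reached 2.18 TPM and Gbp10 1.09 TPM in ablated 3, with at most 0.429 and 0.226 TPM elsewhere.

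**Figure D3:**
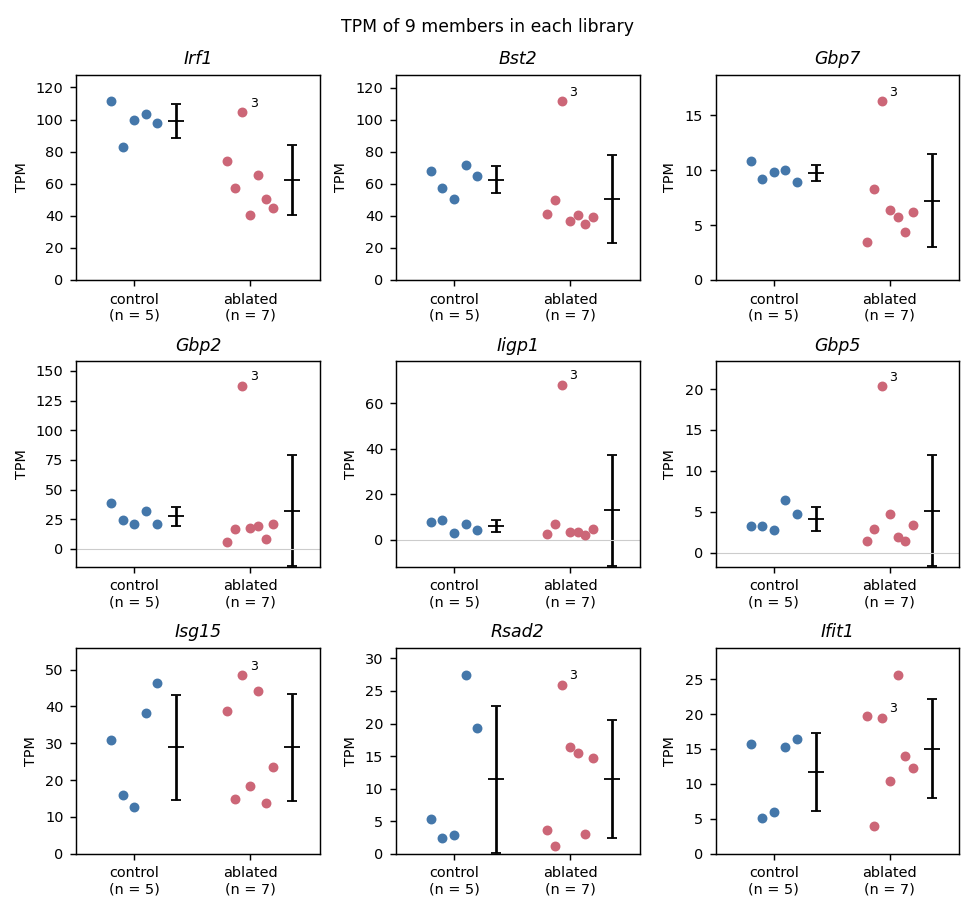
Points are TPM of 9 members in each control (blue) and ablated (red) library, bars are group means ± SD, and the digit 3 marks ablated 3. Irf1, Bst2 and Gbp7 sit lower in 6 of 7 ablated libraries, Gbp2, Iigp1 and Gbp5 have 1 high ablated library, and Isg15, Rsad2 and Ifit1 spread widely in both groups.

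Other genes induced mainly by interferon gamma, outside the families, gave a like picture. Of 25 tested, 0 passed, beside 0.421% of all genes higher and 1.01% lower. Of the 25, 20 had log2 fold changes below 0 and 5 above (median -0.29), and 20 were highest in ablated 3, beside 14.4% of all genes. Those of lowest p were Psmb10, an immunoproteasome subunit, at 186 ± 21.0 and 122 ± 43.9 TPM (log2 fold change -0.66, adjusted p = 0.134), and Tapbp, the tapasin of peptide loading, at 117 ± 9.79 and 77.9 ± 26.2 TPM (-0.64, adjusted p = 0.149). Both had the 6 ablated libraries other than ablated 3 below every control, as did Irf1 and 2.18% of all genes. Cxcl9, a T cell attracting chemokine, was at 25.2 TPM in ablated 3, 21.8 times the median of the others.

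Other values moved with ablated 3. The summed level of 16 T and NK cell markers was 40.6 TPM there, 12 to 22.6 TPM in control and 4.84 to 13.7 TPM in the other ablated libraries. Of the 9 of them that were tested, 6 were highest in ablated 3, beside 14.4% of all genes tested. Between the groups 0 passed, and 8 of the 9 had log2 fold changes below 0 (median -0.53). Cd5, Gzma, Klrb1c, Nkg7 and Prf1 were listed at 0 in at least 1 library, none of them ablated 3. The summed level of 14 macrophage markers was 2073 TPM in ablated 3, 660 to 1086 TPM in control and 317 to 960 TPM in the other ablated libraries, with 9 of 14 highest in ablated 3 and none at 0. Between the groups 0 of the 14 passed, and 11 had log2 fold changes below 0 (median -0.08). The summed level of 7 neutrophil markers was 687 TPM in ablated 3, 360 to 719 TPM in control and 216 to 735 TPM in the other ablated libraries. That sum did not set ablated 3 apart, but single markers did, and 4 of the 6 tested were highest there. The median ratio of ablated 3 to the median of the other 11 libraries was 12.1 over the tested neutrophil markers. It was 4.23 over the tested T and NK cell markers and 2.11 over the macrophage markers. Between the groups 0 of the 6 tested neutrophil markers passed, and 5 lay below 0 (median -0.05). Cxcr2 and Retnlg were listed at 0 in at least 1 library. The epithelial sum (17590 TPM) and the smooth muscle sum (8966 TPM) of ablated 3 lay within the range of the other libraries. Ablated 3 had 23.0 M reads and a mitochondrial share of 4.92%. The part of these cell types in the result was not tested.

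**Figure D4:**
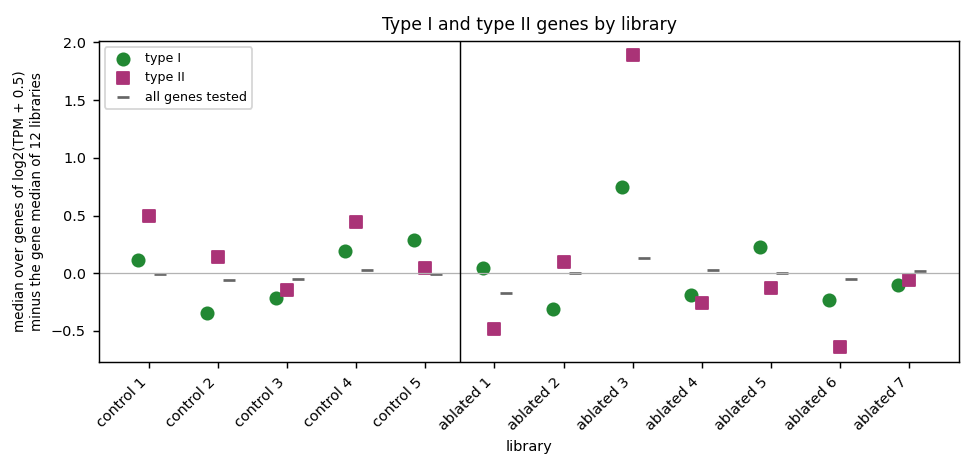
For each library the plot gives the median over genes of log2(TPM + 0.5) minus the gene's median of 12 libraries, for type I genes (circles), type II genes (squares) and all genes tested (dashes). Type II genes range from -0.64 in ablated 6 to 1.89 in ablated 3, and type I genes from -0.35 in control 2 to 0.75 in ablated 3.

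The classes did not follow each other in every library. In ablated 1 the type II median was -0.48 and the type I median 0.04, beside -0.17 for all genes, of which 36.0% were lowest in that shallow library. In ablated 6 type II genes were at -0.64 and type I genes at -0.23, and 0 of 16 type II genes were above their median, beside 6844 of 16164 genes tested. That library also had the highest smooth muscle sum (22938 TPM, next 15770 in ablated 2). Its macrophage sum (317 TPM) and its B and plasma cell sum (106 TPM) were the lowest of the 12. The part of tissue content in these medians was not tested. In control 2 the order turned, with type I at -0.35 and type II at 0.14. Control 4 was above the gene median for all 16 type II genes and for 27 of 34 type I genes.

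Type I genes spread widely inside each group. The highest control library exceeded the lowest by a median of 1.92-fold over type I genes and 1.87-fold over type II genes, beside 1.40-fold over all genes tested. Rsad2, which encodes the antiviral enzyme viperin, was at 5.36, 2.39, 2.80, 27.4 and 19.3 TPM in control and 3.71, 1.14, 26, 16.4, 15.5, 3.02 and 14.7 in ablated, an 11.5-fold range among controls alone. Isg15, a ubiquitin-like modifier, was at 31.0, 15.9, 12.8, 38.2 and 46.3 TPM in control and 38.7, 14.9, 48.5, 18.4, 44.2, 13.7 and 23.4 in ablated, with means of 28.8 ± 14.3 and 28.9 ± 14.6. Low and high libraries occurred on both sides. For both genes control 2, control 3, ablated 2 and ablated 6 were low, and control 4, control 5 and ablated 3 were high. The interval of the log2 fold change of Isg15, -0.86 to 0.86, leaves room for changes of that size in either direction.

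Bst2, which encodes tetherin, a membrane protein that holds budding virions to the cell, was named after its values were seen. It was at 68.1, 57.7, 50.4, 71.6 and 64.6 TPM in control and at 40.9, 49.7, 111, 36.8, 40.5, 34.9 and 39.2 in ablated. The 6 ablated libraries other than ablated 3 lay below every control, with ablated 2 only just below, while ablated 3 was the highest of the 12. The log2 fold change was -0.41 (adjusted p = 0.582), and -0.62 without ablated 3 (adjusted p = 0.0246). Without ablated 3, 2 members passed as lower, Irf1 and Bst2, beside 1.13% of all genes lower and 0.384% higher, and 4 members, Irf1, Bst2, Gbp7 and Ifi35, had ablated libraries all below the controls, beside 2.18% of all genes; none had them all above, beside 1.5%. Unadjusted, 13 members were then lower at p under 0.05, 7 of type II, 5 of type I and 1 shared, beside 6.2% of all genes, and 0 were higher, beside 5.88%.

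The type I genes of lowest p lay on both sides of 0. Ifit1bl2, an Ifit1-like gene in the Ifit cluster, was at 2.75, 3.62, 3.10, 4.97 and 6.08 TPM in control and 3.6, 1.80, 1.80, 1.61, 3.33, 1.22 and 0.710 in ablated, a log2 fold change of -0.94 (95% interval -1.58 to -0.29, adjusted p = 0.186). Only ablated 1 and ablated 5 reached the control range. It did not share the high value of ablated 3, where it was 0.581 times the median of the other libraries. Isg20, an exonuclease that degrades viral RNA, was at 34.7 ± 3.01 TPM in control and 28.7 ± 3.82 in ablated (-0.28, adjusted p = 0.318). Oasl1, an Oas-like protein that restrains the translation of Irf7, was at 18.2 ± 6.05 and 30.9 ± 15.7 TPM (0.65, adjusted p = 0.518), highest in ablated 5, ablated 7 and ablated 4. Dhx58, which encodes the RNA sensor LGP2, was at 9.93 ± 1.72 and 12.8 ± 3.56 TPM (0.33, adjusted p = 0.554). When each library was given a weight by its own spread, 3 members passed as lower, Irf1, Ifit1bl2 (-1.12, adjusted p = 0.0332) and Isg20 (-0.35, adjusted p = 0.0446), beside 2.71% of all genes lower and 4.05% higher.

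The Ifit family itself was split. Ifit1bl1, its most abundant gene, was at 91.6 ± 25.2 TPM in control and 83.2 ± 47.0 in ablated, with 174 TPM in ablated 5 and 34.7 TPM in ablated 6. Ifit1, which binds viral RNA with an incomplete cap, was at 11.7 ± 5.61 and 15.1 ± 7.15 TPM, and its 95% interval of -0.59 to 1.25 on the log2 scale includes 0. Among the type I genes the most abundant were Ifi27l2b at 156 ± 14.7 and 159 ± 25.5 TPM and Ifi27 at 133 ± 12.4 and 149 ± 14.8 TPM. Both encode small hydrophobic proteins of the same family. Other type I interferon genes outside the families showed 0 of 28 passing, beside 0.421% of all genes higher and 1.01% lower, with 16 above 0 and 12 below. Those of lowest p were Eif2ak2, which encodes the RNA-activated kinase PKR, at 18.7 ± 2.30 and 26.7 ± 4.95 TPM (0.49, adjusted p = 0.104), and Samd9l, an antiviral factor, at 21.6 ± 3.51 and 27.9 ± 1.97 TPM (0.37, adjusted p = 0.149). For Eif2ak2 every ablated library (22.6 to 36.9 TPM) lay above the highest control (21.3 TPM), as for 1.33% of all genes. For Samd9l 6 of 7 did. With a weight per library both passed as higher, Eif2ak2 at an adjusted p of 0.0199 and Samd9l at 0.0473. That fit called 4.05% of all genes higher and 2.71% lower. Over all alternatives the adjusted p of these 2 genes ranged up to 0.297 and 0.443.

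Stat2, a subunit of the complex that binds the ISRE, was at 25.3 ± 3.82 and 32.5 ± 12.1 TPM with 47.9 TPM in ablated 3 and 46.4 TPM in ablated 1.

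Of the Irf family, Irf2, which competes with Irf1 for the same elements, was at 79.8 ± 10.7 TPM in control and 86.1 ± 10.3 in ablated (log2 fold change 0.11, 95% interval -0.13 to 0.36). Thus Irf1 and Irf2 were at like levels in the tissue, with Irf1 the higher in control and the lower in ablated. Irf4, a factor of plasma cells and other lymphocytes, was at 2.55 ± 0.780 and 1.62 ± 0.833 TPM (-0.58, adjusted p = 0.432). Of 9 B and plasma cell markers 8 had log2 fold changes below 0 and 1 passed as lower, beside 1.01% of all genes. The summed level of these markers was 555 to 884 TPM in control and 106 to 583 TPM in ablated. The part of these cells in the Irf4 value was not tested. Irf3, Irf5 and Irf7, which the nucleic acid sensors activate, had log2 fold changes of -0.11, 0.01 and 0.00.

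The Ifitm genes encode membrane proteins that block viral entry. Ifitm2 and Ifitm3 had the highest levels of all shared members, at 301 ± 15.5 and 181 ± 17.2 TPM in control and 282 ± 72.0 and 178 ± 95.2 in ablated. Ifitm2 was lowest in ablated 1 (144 TPM), and Ifitm3 was highest in ablated 3 (360 TPM), followed by ablated 2 (243 TPM). Of the 11 p200 genes, 8 were tested, with log2 fold changes of -0.28 (Ifi209) to 0.52 (the pseudogene Ifi203-ps, 224 reads in all, adjusted p = 0.556). Their levels were low, and control 4 stood near ablated 3: Ifi205 was at 6.12 TPM in control 4 and 6.88 TPM in ablated 3, and Ifi209 at 6.15 and 5.25 TPM, with at most 2.71 TPM in any other library for both.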

How the data were processed

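Polyadenylated RNA of 12 colon libraries (5 control, 7 ablated) was made into directional libraries, per the labels' protocols. Per the submitters' processing notes, reads were handled with bcl2fastq 2.17, HISAT and featureCounts on mm10; no version is given for the last 2, and counting settings are not given in the sources used here. The authors deposited TPM per gene for each library and a series table of the same values. A comparison of the groups made by the authors with edgeR was deposited too, and holds log2 fold changes, a score (the F statistic) and p-values with false discovery rates, used only where named.

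Members and lists were chosen with earlier results of these data known. Whole reads were recovered from the TPM for all 22842 genes above 0, within 0.05 read, to give depth (13.4 to 26.9 M reads) and for the count-based fit. Groups follow the labels. The values of 2 shared members are not reported here, though class counts and medians include them. The 16164 genes that reached 0.5 TPM in 5 or more libraries were fitted in limma 3.58.1 (R 4.3.3), after a log2 transform of TPM + 0.5 (eBayes with a trend, no covariate, two-sided), adjusted by Benjamini and Hochberg over all of them; the fit was tested on simulated data. Type I, type II and shared classes are described by counts and medians, with no test of a list. Named by rule were, in each class, the 4 members of smallest p and the 3 of highest mean, and of each list outside the families the 2 of smallest p; other members were chosen after values were seen. Each alternative changed 1 choice: added constants of 1 or 0.1, no minimum or one of 1 TPM, scaling by quantiles or by the median of ratios, moderation without a trend or made robust, library weights, library number as a block, and each library left out; voom on recovered reads was added after seeing the data. Sequences are RefSeq promoters on GRCm38.p6, and coordinates of genes are GENCODE on mm10. Summaries were made with pandas 2.3.3 and numpy 2.4.6 in Python 3.11.15, and figures with matplotlib 3.10.9.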

Additional observations from a re-analysis of the deposited data

Results flagged for a closer look

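In each group every tested member was examined for a highest or lowest library separated from the rest by a gap that is large beside the group's range. Of 140 such group tests 16 found one, beside 7.21% of the group tests over all genes tested, and chance alone gives about 1 in 20. Ablated 3 was the separate high library for 12 of 70 members, beside 0.977% of all genes, 8 of them type II: Iigp1 at 68.1 TPM, Gbp2 at 137, Irgm1 at 73.7, Igtp at 72.2, Gbp3 at 28.2, Gbp5 at 20.3, Gbp6 at 10.1 and Gbp9 at 8.75 TPM. The others in ablated 3 were Bst2 at 111 TPM, Ifitm1 at 40.7, Ifi204 at 9.60 and Ifi211 at 7.89 TPM. Because these genes share a library, and some overlap on the chromosome, the flags are not independent.

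Separate libraries were also found for Irgm2 in control 1 (21.6 TPM, highest of the controls), Ifi203 in control 4 (6.97 TPM, highest), Ifi27l2b in control 5 (182 TPM, highest) and Ifitm2 in ablated 1 (144 TPM, lowest of the ablated libraries).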

How the results depend on the processing

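No member passed as higher in any of the 23 alternatives. Members passing as lower numbered 0 in all but a weight per library and leaving out ablated 3. The weighted fit gave 3 of 70 (Irf1, Ifit1bl2 and Isg20), beside 2.71% of all genes lower and 4.05% higher. Leaving out ablated 3 gave 2 of 70 (Irf1 and Bst2), beside 1.13% of all genes lower and 0.384% higher. Over all libraries left out in turn the count was 0 to 2. The type I median kept within -0.09 to 0.13 and turned negative only when a library was left out, and the type II median stayed below 0, from -0.51 without ablated 3 to -0.01. Abundant genes near 0 changed sign. Ifi27l2b (0.02) was at -0.0656 with a weight per library, -0.00775 with median-of-ratios scaling and -0.00739 with voom, and -0.0447 to 0.0716 with a library left out. Ifi30 ranged from -0.136 to 0.00607 and Ifitm2 from -0.214 to 0.0116 with a library left out. Same-numbered libraries correlated at 0.00935, 0.359, -0.269, 0.203 and 0.162, and 1 of 5 controls correlated best with its own number, so the numbers are not shown to pair the samples. With the replicate block 0 members passed, the type I median was 0.13 and the type II median -0.03, and 84 genes were called over all, against 231 without it. A weight per library called 1092 genes, leaving out control 2 called 128, leaving out control 3 called 137, and no minimum called 349. Members near the minimum rest on few reads (111 in all for Ifitm6).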

Other observations

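Among genes that interferon gamma induces outside the families described above, 3 immunoproteasome subunits (Psmb8, Psmb9 and Psmb10), Tapbp, which helps load peptides onto MHC class I, and Ubd lay below every control in the 6 ablated libraries other than ablated 3. The same held for 2.18% of all genes tested. The 5 named genes, and the comparison without ablated 3, were picked after their values were seen. Without ablated 3, 5 of the 25 tested genes of that list passed in limma, all lower, where 1.13% of all genes passed as lower: Psmb10 (log2 fold change -0.81, adjusted p = 0.00378), Psmb8 (-1.41, adjusted p = 0.00577), Ubd (-1.63, adjusted p = 0.00628), Psmb9 (-0.98, adjusted p = 0.00941) and Tapbp (-0.78, adjusted p = 0.0157). With a weight per library Psmb10, Tapbp, Ubd and Batf2, a transcription factor, passed as lower (adjusted p = 0.0210, 0.0167, 0.0347 and 0.0356). In that weighted fit 2.71% of all genes passed as lower and 4.05% as higher. In the unweighted fit of all 12 libraries none of the first 5 passed, with log2 fold changes of -0.66, -1.07, -1.32, -0.68 and -0.64 in the same order. Psmb8 encodes an inducible catalytic subunit of the proteasome and was at 140 TPM in ablated 3, 50.5 to 114 TPM in control and 18.8 to 36.5 TPM in the other ablated libraries. Ubd, a ubiquitin-like modifier also called FAT10, was at 12.2 TPM in ablated 3, 5.90 to 13.5 TPM in control and 1.33 to 3.72 TPM in the others.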
